A study of Mus musculus with 70 samples.

Results

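The paraventricular nucleus of the hypothalamus (PVH) was compared with 4 other hypothalamic nuclei taken from the same series: the arcuate (ARH), ventromedial (VMH) and dorsomedial (DMH) nuclei and the lateral hypothalamic area (LHA). The libraries were chosen by their region labels alone, which gave 2 PVH libraries of the 70 in the series, set against 12 libraries from the other nuclei (3 ARH, 2 VMH, 4 DMH and 3 LHA). All 14 came from untreated adult male C57BL/6NTac mice at postnatal day 56, with no transgene or deletion. Tissue was punched from frozen brain sections, and tissue from several mice was pooled for each library, so the spread between libraries is between pools. The study used fewer mice than it made adult libraries, and pools of different nuclei can share animals. In each comparison the 4 other nuclei were given equal weight, so that DMH with its 4 libraries counted no more than VMH with its 2. Levels are in TPM, the share of transcripts corrected for their length, and fold changes come from the estimated counts. The SE beside a fold change was derived from the test statistic, and it is least reliable for genes with few counts.

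The PVH is the neuroendocrine output nucleus of the hypothalamus. Its magnocellular neurons make oxytocin and vasopressin and send them to the posterior pituitary, while parvocellular neurons release corticotropin-releasing hormone and thyrotropin-releasing hormone to the anterior pituitary. Other PVH neurons project to the brainstem and spinal cord, and neurons bearing the melanocortin receptor Mc4r restrain feeding. Development of these cells depends on the transcription factors Sim1, Arnt2, Otp and Pou3f2. The ARH senses hormones through its Pomc and Agrp neurons, the VMH is marked by Nr5a1, the DMH holds Npvf neurons, and the LHA holds the orexin (Hcrt) and melanin-concentrating hormone (Pmch) neurons.

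Of the 5 peptide genes that were higher in PVH, 4 had a promoter sequence in the RefSeq table, which is of build GRCm38.p6 and gives 250 bases before and 50 bases after the start of transcription. They are shown because these hormone genes are what the PVH is known for and because Oxt and Avp are neighbours. Oxt occupies bases 130576173 to 130577054 on the plus strand of chromosome 2 and Avp bases 130580620 to 130582554 on its minus strand, so that the 3′ ends face each other across 3565 bases. The promoters lie at chr2:130575919-130576218 (plus strand, Oxt), chr2:130582539-130582838 (minus strand, Avp), chr6:92244601-92244900 (minus strand, Trh) and chr13:3945300-3945599 (minus strand, Ucn3). Capitals mark matches on either strand to TGACC (the core recognised by nuclear receptors), ACGTG (a core of basic helix-loop-helix PAS factors, the family of Sim1 and Arnt2) and TAATTA (a homeodomain core). Each is printed 5′ to 3′ on the strand of its gene.
Oxt: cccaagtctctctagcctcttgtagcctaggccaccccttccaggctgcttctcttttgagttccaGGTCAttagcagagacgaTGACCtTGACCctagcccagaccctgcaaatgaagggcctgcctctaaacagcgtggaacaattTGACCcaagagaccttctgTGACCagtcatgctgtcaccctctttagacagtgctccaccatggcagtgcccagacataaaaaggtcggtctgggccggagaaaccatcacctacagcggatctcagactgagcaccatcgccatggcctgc
Avp: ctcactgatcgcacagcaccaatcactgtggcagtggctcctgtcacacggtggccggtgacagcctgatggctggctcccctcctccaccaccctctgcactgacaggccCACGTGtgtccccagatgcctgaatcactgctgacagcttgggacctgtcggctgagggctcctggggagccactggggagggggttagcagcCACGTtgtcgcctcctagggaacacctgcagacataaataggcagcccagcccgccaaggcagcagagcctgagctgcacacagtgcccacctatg
Trh: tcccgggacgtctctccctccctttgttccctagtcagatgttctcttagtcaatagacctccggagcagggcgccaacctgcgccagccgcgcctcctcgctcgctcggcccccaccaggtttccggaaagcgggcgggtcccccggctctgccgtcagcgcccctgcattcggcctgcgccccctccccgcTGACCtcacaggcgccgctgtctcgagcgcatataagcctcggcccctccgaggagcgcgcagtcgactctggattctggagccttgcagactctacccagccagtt
Ucn3: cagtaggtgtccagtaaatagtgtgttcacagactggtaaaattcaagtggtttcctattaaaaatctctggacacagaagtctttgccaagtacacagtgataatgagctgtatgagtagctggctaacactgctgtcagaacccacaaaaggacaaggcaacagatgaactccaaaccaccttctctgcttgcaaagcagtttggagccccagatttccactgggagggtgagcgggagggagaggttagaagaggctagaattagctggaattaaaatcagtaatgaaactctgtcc
The Oxt promoter held 5 matches to TGACC, a number reached by 31 of the 32851 promoters in the table (0.0944%), and the Trh promoter held 1. At least 1 match to TGACC was present in 40.5% of all promoters. The Avp promoter held 3 matches to ACGTG, 2 of which overlap on opposite strands, where 1.73% of all promoters held 3 or more and 19.6% held at least 1. The Ucn3 promoter held none of the letters searched, and TAATTA was found in none of the 4 windows and in 5.29% of all promoters. These are matches of letters only.

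The total count per library was 14201960 to 19689276, with 16827598 for PVH 1 and 16415941 for PVH 2. Averaged over genes above a minimum count, libraries of the same nucleus differed by more than counting error. That average does not hold for each gene, and counting error weighs most on genes with few counts. The nearest library to each PVH library was the other PVH library (r = 0.977 on log2 TPM, across genes). Mitochondrial transcripts took 10.3% of the TPM in PVH 1 and 6.76% in PVH 2, against a range of 5.55% to 10.3% over all 14 libraries. Some libraries stood apart within their nucleus. VMH 1 carried 599 TPM of Oxt where VMH 2 carried 52.5 TPM. DMH 2 had the largest thalamus signal and the least Hcrt and Pmch of the 4 DMH libraries. Of the genes that define the nucleus, Oxt and Ucn3 had their highest means of all 22 brain regions in PVH, Sim1 was at a similar mean level in PVH (3.96 TPM) and DMH (4.17 TPM), and the summed markers of the neighbouring thalamus were also highest in PVH. The serial numbers in the labels were divided here into 4 groups whose make-up by nucleus matches the study's list of preparation batches. That list is by region and not by library, and the labels do not call the groups batches. PVH 1 shared its group with DMH 1 and LHA 1, and PVH 2 shared its group with DMH 4, ARH 3 and LHA 3.

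Of 16526 genes tested with edgeR's quasi-likelihood test, 308 (1.86%) were higher in PVH than in the mean of the 4 other nuclei and 208 (1.26%) were lower, where a call needed more than a 2-fold difference (log2 fold change beyond 1 or -1) and an adjusted p below 0.05. Together these were 516 genes (3.12%). Both PVH libraries lay above all 12 others for 194 of the 308 higher genes (1.17% of all tested), and below all 12 for 90 of the 208 lower genes (0.545%). Over all tested genes, such a separation was seen for 741 (4.48%) above and 493 (2.98%) below. The counts moved with each PVH library: without PVH 1 the counts were 221 higher and 99 lower, and without PVH 2 they were 302 and 164. With the serial group as a term in the fit, an alternative added after the data were seen, 312 genes were higher and 166 lower, and 271 of the 308 and 151 of the 208 were called again. Inside both serial groups that hold a PVH library, 296 of the 308 were above the mean of the other libraries of the group (31.2% of all tested genes were) and 199 of the 208 were below it (33.6%), on log2(TPM + 0.5). The calls were made with these same libraries, so most of this follows from the selection and it is not a separate test. Neither of these serial groups holds a VMH library, so VMH does not enter the comparison inside groups. When the 12 libraries were treated as a single group, whose spread then holds the differences among the 4 nuclei, 35 genes were called higher and 11 lower.

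PVH had the fewest calls against DMH and the most against ARH. Against DMH, 85 genes were higher (0.514%) and 142 lower (0.859%), in all 1.37% of the genes tested. Against LHA the numbers were 457 higher (2.77%) and 311 lower (1.88%, in all 4.65%). Against VMH they were 463 higher (2.8%) and 427 lower (2.58%, in all 5.39%), and against ARH 736 higher (4.45%) and 948 lower (5.74%, in all 10.2%). The 4 comparisons share the 2 PVH libraries, and the power differs with the 2 to 4 libraries of the other nucleus. No VMH library shared a serial group with a PVH library. The DMH count depended most on single libraries: the total of 227 became 350 without DMH 2, 82 without PVH 1, 113 without PVH 2, 151 without DMH 1 and 135 without DMH 3. The total against LHA was 768, and 454 without PVH 2. That against VMH was 890, and 498 without PVH 1 and 565 without VMH 2.

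**Figure D1:**
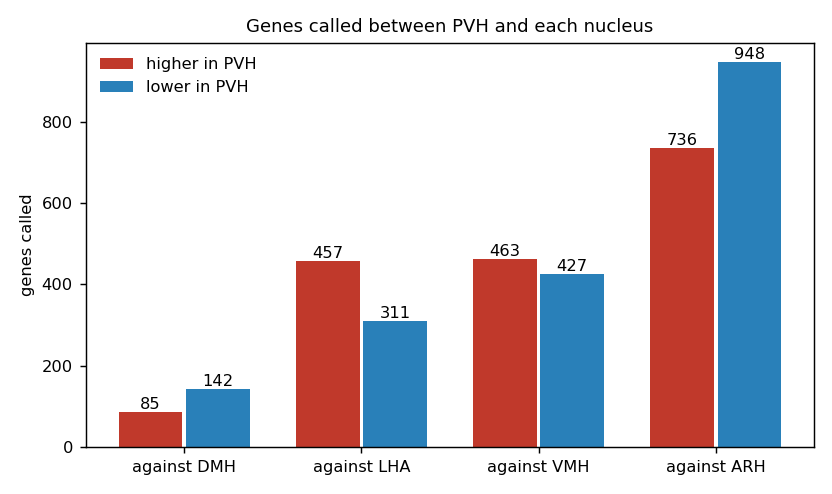
Number of genes called (vertical axis) between PVH and each of the 4 other nuclei, higher in PVH in red and lower in blue. The fewest calls are against DMH (85 and 142) and the most against ARH (736 and 948).

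Of the 13 genes on the list of PVH neuropeptides, 5 were higher in PVH (Oxt, Avp, Crh, Trh and Ucn3), 4 were lower (Adcyap1, Pdyn, Tac1 and Nts) and 4 were not called, where 1.86% of all genes were higher and 1.26% lower. The list's median log2 fold change was -0.76, against -0.01 over all genes tested. In these bulk samples, fewer cells of a type and less RNA per cell cannot be told apart.

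Oxt encodes oxytocin, the hormone of milk ejection and labour. It stood at 454 TPM in PVH 1 and 2075 TPM in PVH 2. In ARH it was 341, 615 and 113 TPM, in VMH 599 and 52.5 TPM, in DMH 29.6, 1.11, 10.6 and 7.47 TPM, and in LHA 40.6, 37.1 and 41.9 TPM. PVH 2 was thus above every other library, while PVH 1 was below ARH 2 and VMH 1, so the groups overlapped. The log2 fold change was 3.87 ± 0.60 (SE; edgeR adjusted p = 0.000629), and 2.45 without PVH 2 (adjusted p = 0.0667). Against single nuclei, Oxt was higher than in DMH (log2 fold change 6.71 ± 0.98) and LHA (4.89 ± 0.94), and was not called against ARH (1.88 ± 0.81) or VMH (1.99 ± 0.93).

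Avp, the gene of the antidiuretic hormone vasopressin, stood at 221 TPM in PVH 1 and 1069 TPM in PVH 2. In ARH it was 464, 1904 and 228 TPM, and all 3 values were above PVH 1. In VMH it was 409 and 7.61 TPM, in LHA 84.2, 62.4 and 73.3 TPM, and in DMH 18.8, 0.946, 0 and 1.81 TPM. ARH had the highest mean of all 22 brain regions and PVH came next. Avp had a log2 fold change of 2.82 ± 0.81 (adjusted p = 0.0297), which became 1.34 without PVH 2 (adjusted p = 0.521) and 1.44 in a contrast without DMH (adjusted p = 0.255). DESeq2 did not call it (adjusted p = 0.181). Of the 4 single nuclei, the difference was called against DMH (6.94 ± 1.35), and against ARH it was -0.38 ± 1.02.

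Ucn3, encoding urocortin 3, a ligand of the receptor Crhr2, had the largest fold change among the genes named by size. It stood at 11.5 and 27.6 TPM in the PVH libraries, at 11.2 and 1.41 TPM in VMH, at 2.08 TPM or less in LHA, and at 0.471 TPM or less in DMH and ARH. Both PVH libraries were above all 12 others, with VMH 1 close to PVH 1. The log2 fold change was 5.04 ± 0.60 (adjusted p = 8.6e-05), and it was not called against VMH alone (1.68 ± 0.82). PVH (19.6 TPM) and VMH (6.31 TPM) had the highest means of the 22 brain regions, followed by PB at 1.25 TPM, and the VMH mean was set by VMH 1.

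Crh, which starts the adrenal stress response, stood at 11.1 and 21.5 TPM in PVH. The highest of the 12 other libraries was VMH 1 at 8.55 TPM, and the ARH libraries were the lowest at 1.02, 1.09 and 1.57 TPM, so the groups did not overlap. The log2 fold change was 2.41 ± 0.24 (adjusted p = 1.88e-05), and Crh was called higher against each of the 4 nuclei, from 1.33 ± 0.35 against VMH to 3.81 ± 0.35 against ARH. It was one of 8 among 73 called genes that were followed through the alternative settings and stayed called in all of them. Over the 22 brain regions, PVH (16.3 TPM) and the parabrachial nucleus PB (16.4 TPM ± 2.9, SD, n = 3) had the highest means, which differed by less than their spread.

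Trh, which starts the thyroid axis, was not highest in PVH. It stood at 87 and 169 TPM in PVH, at 281 and 229 TPM in VMH, and at 18.3 to 62.8 TPM in the 10 libraries of the other nuclei. Both VMH libraries were above both PVH libraries, which were above the remaining 10. The log2 fold change of 1.03 ± 0.30 (adjusted p = 0.0312) sat at the fold threshold, and was 0.53 without PVH 2 (adjusted p = 0.466). It also passed under the threshold without ARH 1 (0.99), without DMH 2 (0.97) and without VMH 2 (0.99). The call was made in 13 of 27 alternatives. It was lost in DESeq2 (adjusted p = 0.0597), in the 3 limma fits (0.98 to 0.99), with the serial group as a term (0.75, adjusted p = 0.123), and in contrasts without ARH (0.82), DMH (0.91) or LHA (0.72). Against VMH alone the difference was -0.94 ± 0.41 (adjusted p = 0.13).

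**Figure D2:**
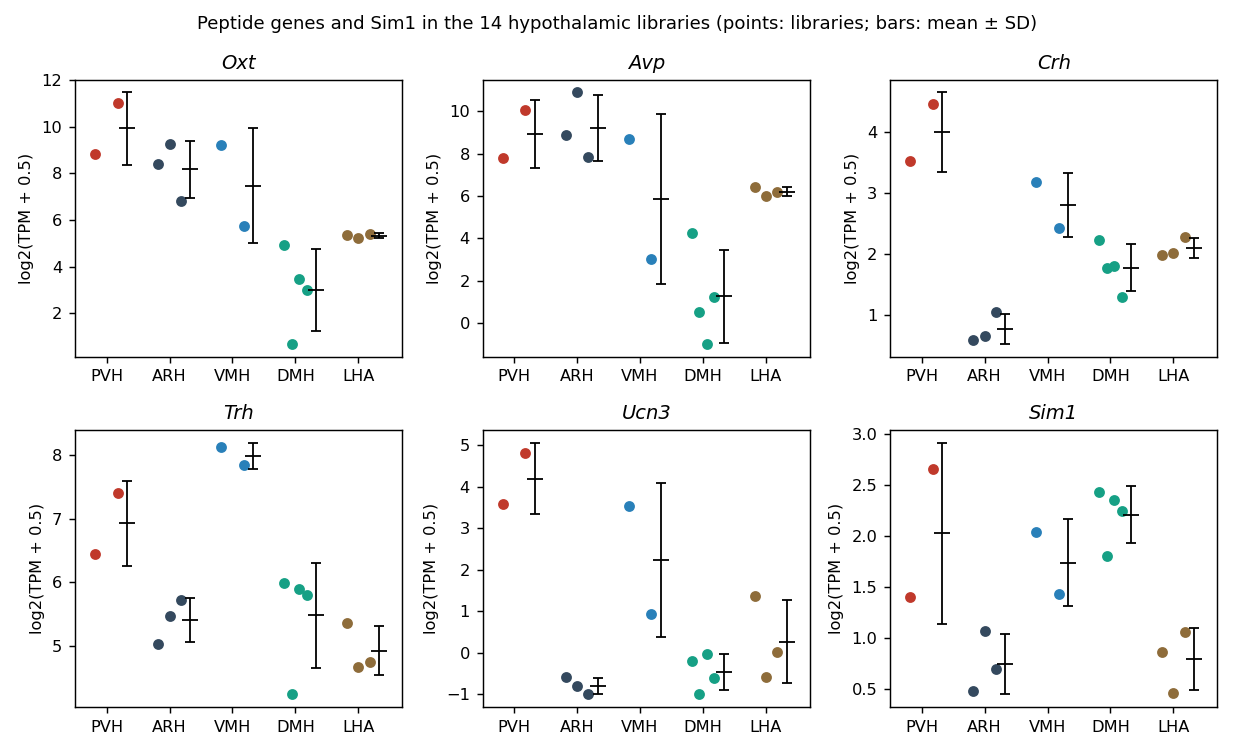
Level of 5 peptide genes and Sim1 as log2(TPM + 0.5) (vertical axis) in each nucleus (horizontal axis), with a point for each library and the mean ± SD as bars. PVH 2 is above PVH 1 in every panel, Crh and Ucn3 are above all 12 other libraries in both, and Trh is highest in VMH.

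The other peptides of the list were lower in PVH or were not called. Nts, the gene of neurotensin, was the clearest, at 6.87 and 6.19 TPM in PVH against 17.1 to 69.9 TPM in the 12 other libraries, a log2 fold change of -2.04 ± 0.17 (adjusted p = 5.95e-06). Pdyn, the precursor of dynorphins, stood at 7.81 and 21.7 TPM against 12.8 to 107 TPM, with a log2 fold change of -1.82 ± 0.34, and -1.30 without PVH 1 (adjusted p = 0.0601). Adcyap1, encoding the peptide PACAP, stood at 16.3 and 20.5 TPM against a mean of 70.3 TPM in ARH and 22.4 TPM in LHA, with a log2 fold change of -1.28 ± 0.26, and -1.16 without PVH 1 (adjusted p = 0.0929). Tac1, the gene of substance P, was at the threshold (-1.02 ± 0.27), and was not called in 6 of the 14 fits that left out 1 library, those without ARH 3, DMH 3, LHA 3, VMH 1 or either PVH library (-0.88 to -1.19). Sst (320 and 327 TPM, log2 fold change -0.67), Penk (66.7 and 75.6 TPM, -0.78), Gal (42.9 and 48.8 TPM, -1.03) and Vip (0.866 and 0.249 TPM, -0.76) were not called.

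None of the 6 PVH transcription factors was called in the main comparison, and their median log2 fold change was 0.21. Sim1, needed for the PVH to form and mutated in a monogenic obesity, stood at 2.13 and 5.79 TPM in PVH. It was 4.9, 2.98, 4.58 and 4.22 TPM in DMH, 3.6 and 2.2 TPM in VMH, and at most 1.59 TPM in ARH and LHA. Its log2 fold change was 0.90 ± 0.28 (adjusted p = 0.0391), under the fold threshold. That value moved with the PVH libraries, to 1.38 without PVH 1 (adjusted p = 0.0135, called) and 0.18 without PVH 2 (adjusted p = 0.8), and Sim1 was also called in contrasts without VMH (1.05) or DMH (1.24). Sim1 was called higher against ARH (1.77 ± 0.35) and LHA (1.47 ± 0.35), and against DMH the difference was -0.10 ± 0.32. The highest mean of Sim1 was in the embryonic hypothalamus (THy/PHy). Otp, a homeobox factor of neuroendocrine neurons, stood at 11.9 and 34.7 TPM in PVH and was highest of the adult nuclei in ARH (61.2 TPM ± 27.6, SD, n = 3), where it was called above PVH (-1.30 ± 0.41). Arnt2 (85.2 and 105 TPM, 80.1 to 115 TPM in the others) and Pou3f2 (9.62 and 12.9 TPM, 7.02 to 14.2 TPM in the others) lay within the range of the other libraries, with log2 fold changes of -0.09 ± 0.05 and 0.18 ± 0.12. Sim2 and Nhlh2 had log2 fold changes of 0.24 ± 0.32 and 0.26 ± 0.19.

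Markers of the thalamus, which lies above the PVH, were the list with the largest share of calls. All 11 of its 11 members were higher in PVH, with a median log2 fold change of 2.49, against 1.86% of all genes called higher. Their summed level was 1182 TPM in PVH 1 and 1063 TPM in PVH 2, against 449 to 906 TPM in DMH, 151 to 424 TPM in LHA, 100 to 108 TPM in VMH and 96.7 to 113 TPM in ARH. The 2 PVH libraries were above all 12 others, with DMH 2 the nearest, and PVH had the highest mean sum of the 22 brain regions. No thalamus punch is among the 22 regions. This and the other lists were chosen with earlier results of these data known, so the calls and sums are a description.

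Gbx2, a homeobox gene of developing and adult thalamus, stood at 34.1 and 54 TPM in PVH, at 6.23 to 11.7 TPM in DMH, and at 3.19 TPM or less elsewhere (log2 fold change 4.61 ± 0.27). Tnnt1, the slow skeletal troponin T, stood at 218 and 143 TPM in PVH, with 33.3 to 114 TPM in DMH (4.12 ± 0.31). Tcf7l2, an effector of Wnt signalling and a regulator of thalamic identity, stood at 221 and 234 TPM against 15.4 to 168 TPM in the 12 others (2.65 ± 0.21). A total of 8 of the 11 lay above all 12 others in both PVH libraries, and Prkcd, Ramp3 and Rora did not because of DMH 2, which held 207, 94.1 and 52.7 TPM of them against 201 and 159, 86.8 and 81.5, and 67.5 and 51.1 TPM in PVH. The remaining members, Slitrk6, Synpo2, Plekhg1, Ntng1, Rora and Lef1, had log2 fold changes between 1.52 and 2.62. All 11 stayed called when any library was left out. Against DMH alone, 4 of the 11 were called higher, with a median of 0.85. The part of the thalamus signal in the other differences of PVH was not tested.

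Markers of the preoptic area and septum, in front of the PVH, were the list with the next largest share of genes called higher. Of its 6 members, 3 were higher, Zic1 and Zic2 among them, and 3 were not called, Lhx6 and Lhx8 among them. Zic1, a zinc finger factor, stood at 216 and 241 TPM against 9.37 to 74.8 TPM (log2 fold change 2.88 ± 0.16). Zic2 stood at 57.5 and 62.3 TPM against 4.49 to 25.8 TPM (2.58 ± 0.22). The summed list was 290 and 320 TPM in PVH against 20.6 to 106 TPM in the 12 libraries, most of it Zic1.

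**Figure D3:**
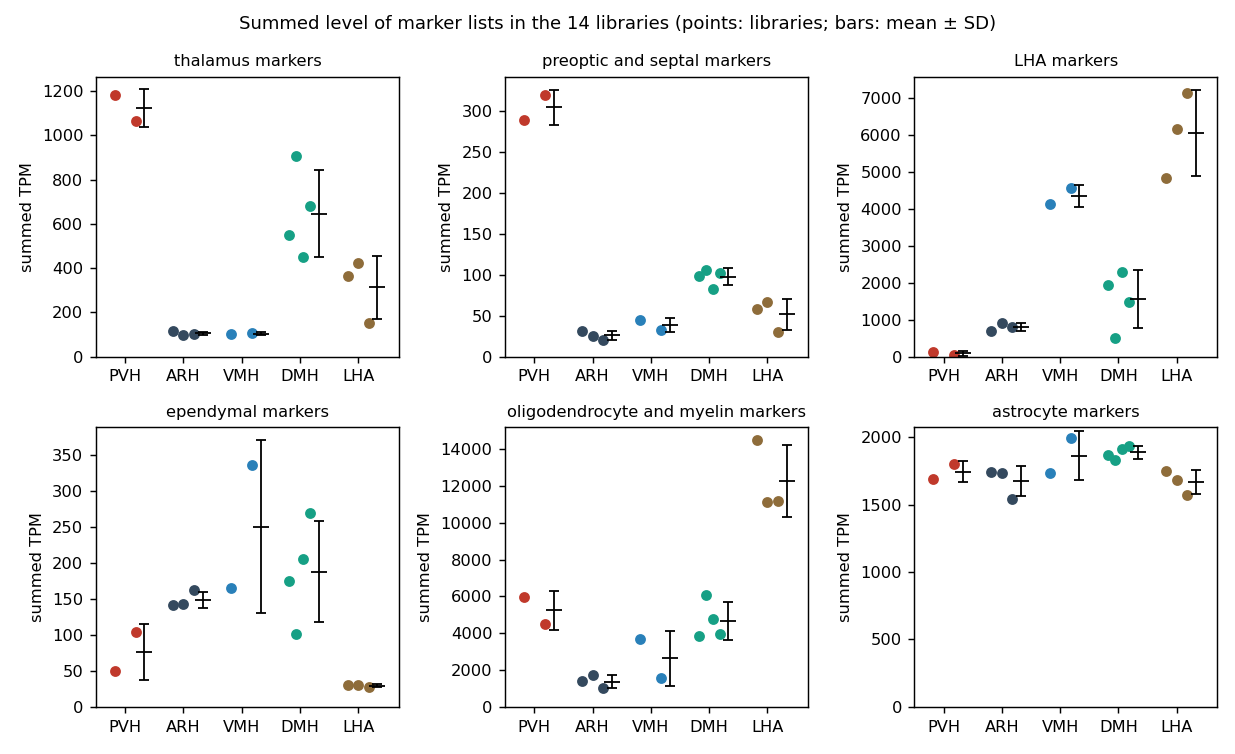
Summed TPM (vertical axis) of 6 marker lists in each nucleus, with a point for each library and the mean ± SD as bars. The thalamus and preoptic lists are highest in PVH, the LHA list is lowest there, and the astrocyte list is at a similar level in all 5 nuclei.

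The 12 genes with the largest log2 fold changes among those above all 12 libraries, of 140 eligible, were Ucn3, Gbx2, Shox2, Tnnt1, Grid2ip, Samd3, Adra2b, Adgrg6, Cck, Zic4, Zic5 and Gabrd. Shox2, a homeobox factor, stood at 73.4 and 71.3 TPM in PVH, at 18.6 to 50.6 TPM in DMH, and at 0.543 TPM or less in ARH (4.30 ± 0.28). Grid2ip, a scaffold of delta glutamate receptors, stood at 45.1 and 34.6 TPM, with DMH next at 13.6 to 26.7 TPM (3.64 ± 0.26). Gabrd, the delta subunit of extrasynaptic GABA-A receptors, stood at 38.5 and 29 TPM (3.03 ± 0.36), and was not called against DMH (0.95 ± 0.42) or LHA (1.26 ± 0.45). Among the 5 hypothalamic nuclei, DMH had the next highest mean for all 3 and LHA the one after, as for the thalamus list.

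Samd3 stood at 5.01 and 10.1 TPM in PVH and at no more than 0.535 TPM in DMH, with LHA 1 next at 3.19 TPM (3.53 ± 0.55). The zinc finger factor Zic4 stood at 21.5 and 22.2 TPM against a maximum of 9.39 TPM (3.05 ± 0.17), and Zic5 at 15.6 and 18.8 TPM against a maximum of 3.49 TPM (3.04 ± 0.16). Zic4 and Zic5 were called against each of the 4 nuclei, with differences between 2.27 and 3.91. Cck, the gene of cholecystokinin, was the most abundant of the 12, at 446 and 423 TPM in PVH, 89.1 to 248 TPM in DMH and 10.1 and 27.1 TPM in VMH (3.09 ± 0.34). Adra2b, an alpha-2 adrenergic receptor (3.19 ± 0.31), and Adgrg6, an adhesion receptor (3.09 ± 0.22), stood at 5.55 and 5.74 TPM and at 10.5 and 8.75 TPM in PVH.

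The 12 largest differences in the other direction, of 44 eligible, included Nkx2-4, Hcrt, Npvf, Bsx, Pmch, Hmx3, Hdc, Nkx2-1, Tac2, Fzd5 and Irx3. Hcrt, the orexin precursor that sustains wakefulness, was listed at 0.784 and 0.276 TPM in PVH, at 915, 1534 and 1890 TPM in LHA, at 659 and 939 TPM in VMH, and at 13.2 TPM or more in every other library. The log2 fold change was -9.15 ± 1.04, with 4 counts over both PVH libraries. Pmch, the precursor of melanin-concentrating hormone, stood at 95.8 TPM in PVH 1 and 16.3 TPM in PVH 2, against 358 TPM in DMH 2 and 5180 TPM in LHA 3, the lowest and the highest of the others (-5.05 ± 0.70).

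The list held several homeobox factors. Nkx2-4 had no count in either PVH library and a mean of 7.65 CPM (counts scaled to library size) over the 4 nuclei. With a floor of 3 counts over the group this puts it at least 84.3-fold lower. The lower end of the 95% counting interval is 68.5-fold. These bounds and the ratios given for Npvf, Nr5a1 and Sox14 set arithmetic means of CPM side by side, so the nucleus with the most of a gene weighs most, unlike in the log2 fold changes. Nkx2-1, which patterns the ventral hypothalamus, stood at 2.48 and 1.08 TPM against 7.03 to 43.4 TPM (-3.17 ± 0.35). Bsx, a homeobox factor of ARH and DMH neurons, stood at 0.0765 and 0.0807 TPM against 1.42 to 24.4 TPM, which was 4 counts over both libraries (-6.62 ± 1.13).

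Npvf, an RFamide peptide of the DMH, had 1 count over both PVH libraries, so that the other nuclei were 428 times higher, with a 95% counting interval of 76.8 to 16903. Its fitted log2 fold change, which for so few counts depends on the fit's prior count, was -7.17 ± 1.01. Hdc, which makes histamine, stood at 1.47 and 2.59 TPM against 6.06 to 96.9 TPM (-3.27 ± 0.58). Tac2, the neurokinin B precursor, stood at 12.4 and 8.77 TPM against 33.3 to 75 TPM and was called against each nucleus (-2.40 ± 0.28). Hmx3 (-4.04 ± 0.88), Fzd5, a Wnt receptor (-2.25 ± 0.35), and Irx3 (-2.20 ± 0.30) were also below all 12 libraries. Hmx3 was -3.07 without PVH 2 (adjusted p = 0.0746).

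**Figure D4:**
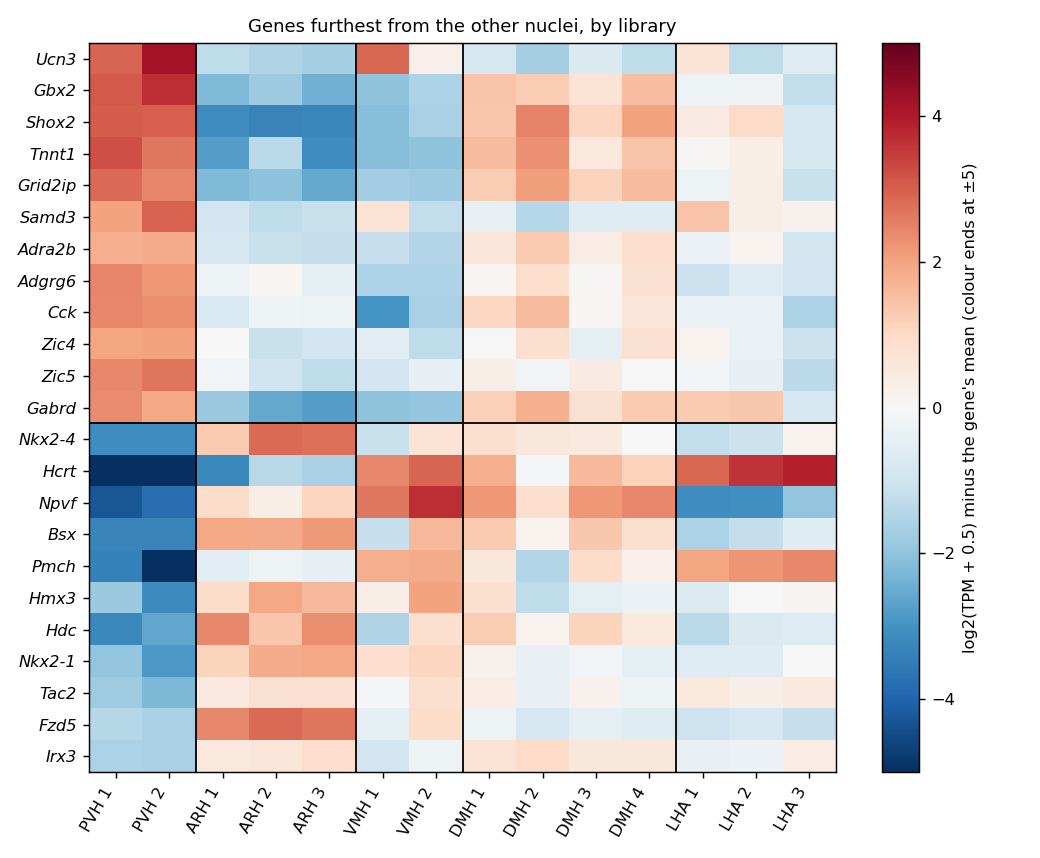
Level of 23 of the genes with the largest changes (rows) in each of the 14 libraries (columns), as log2(TPM + 0.5) minus the mean of the gene over the libraries. The 12 upper genes are highest in the 2 PVH columns, most of them with DMH next, and the 11 lower genes are lowest there.

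Markers of the 4 other nuclei were lower in PVH or were not called, apart from Lhx9. Of the 8 ARH markers tested, Pomc, Tbx3, Bsx and Tac2 were lower. Pomc, the melanocortin precursor, stood at 2.65 and 4.36 TPM in PVH against 551 TPM ± 123 (SD, n = 3) in ARH, and 3.73 TPM or more in each of the 12 libraries (-2.29 ± 0.38). Pomc and Tbx3 were not called in a contrast without ARH, at -0.80 (adjusted p = 0.271) and -0.24 (adjusted p = 0.465). Agrp (1.5 and 1.13 TPM) and Npy (42.9 and 24.4 TPM) had their highest means of the 5 nuclei in ARH, at 132 and 515 TPM, and equal weighting left their contrasts at -1.56 ± 0.65 and -0.61 ± 0.30, not called.

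Of the 6 VMH markers, Nr5a1, Sox14 and Gpr149 were lower. Nr5a1, the factor that defines the VMH, had 2 counts over both PVH libraries, and the other nuclei were 331 times higher, with a counting interval of 91.6 to 2731. Sox14 had 3 counts, with a ratio of 53 and an interval of 18.1 to 257. The fitted log2 fold changes were -5.11 ± 0.96 for Nr5a1, which was not called against DMH or LHA, and -4.09 ± 0.57 for Sox14, which was not called against LHA. Gpr149 was -1.05 without PVH 2 (adjusted p = 0.054) and was at the fold threshold, not called, without VMH 1. Cbln1 (156 and 134 TPM) and Fezf1 (6.2 and 7.95 TPM) were not called. Among the DMH markers, Npvf, Gpr50, Hmx2 and Hmx3 were lower in PVH, and Ppp1r17 and Grp were not called. The summed list had a mean of 180 TPM in VMH, 129 TPM in ARH and 77.4 TPM in DMH, so it did not single out DMH here. Against VMH 6 of the 6 were lower in PVH, against ARH 5, against DMH 2 and against LHA 1. Hmx2 was -4.66 without PVH 1 (adjusted p = 0.0529) and -2.14 without PVH 2 (adjusted p = 0.163). Of the 5 LHA markers, Hcrt, Pmch and Nts were lower, and Lhx9, a LIM homeobox factor, was higher, at 15.5 and 19.3 TPM against 0.588 to 5.24 TPM (2.92 ± 0.13).

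**Figure D5:**
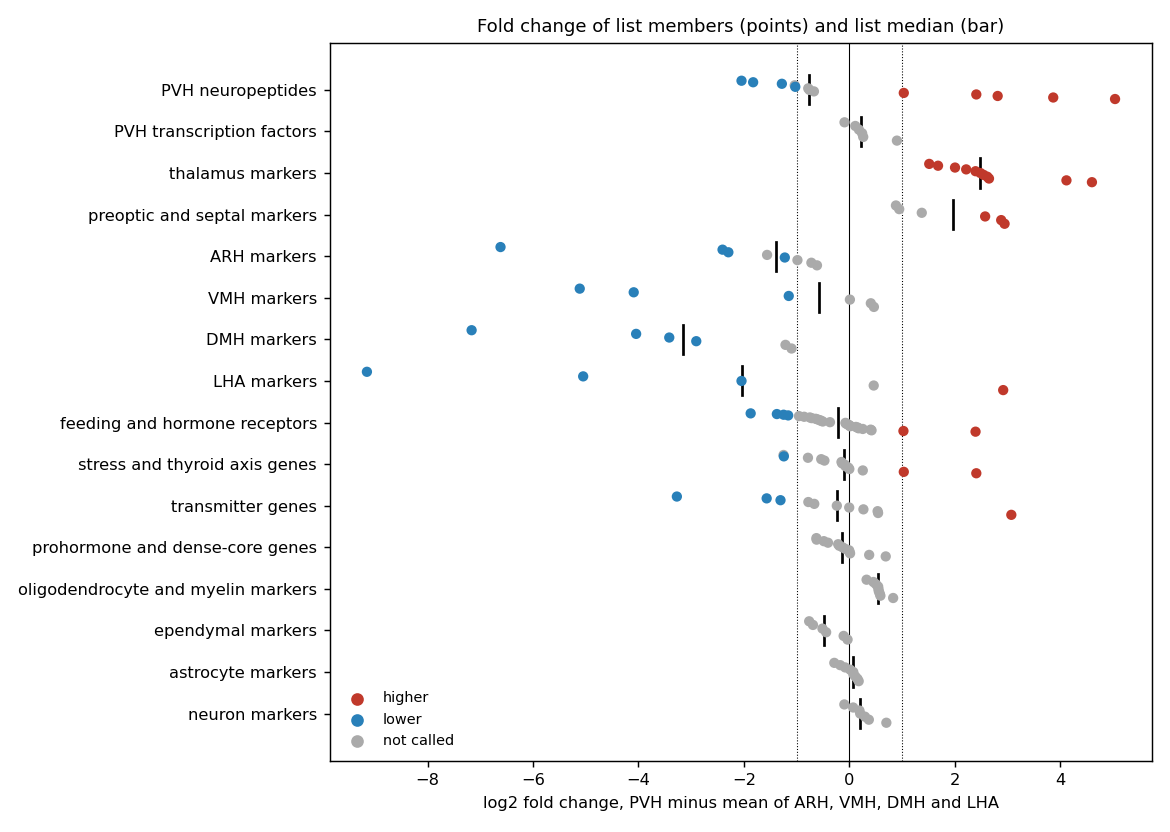
Log2 fold change (horizontal axis) of each tested member of 16 lists, in red where called higher in PVH, in blue where called lower and in grey where not called, with a bar at the median of the list. All 11 thalamus markers lie above 1, the PVH peptides fall on both sides, and the receptor, prohormone and astrocyte lists centre nearer 0.

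Of 28 receptor and hormone-signalling genes, through which hormones and feeding signals act, 2 were higher (Ramp3 and Esr2), 4 were lower (Npy2r, Ghsr, Crhr2 and Avpr1a) and 22 were not called, where 1.86% of all genes were higher and 1.26% lower. The median log2 fold change of the list was -0.22. Mc4r, the melanocortin receptor of PVH feeding circuits, stood at 1.03 and 2.09 TPM in PVH and at 1.25 to 2.84 TPM in the 12 others (-0.37 ± 0.29, adjusted p = 0.43). Lepr, the leptin receptor, stood at 1.38 and 3.59 TPM, with its highest mean in ARH at 7.69 TPM (-0.86 ± 0.16, under the fold threshold). Ghsr, the ghrelin receptor, stood at 0.45 and 0.844 TPM against 1.04 to 7.62 TPM (-1.87 ± 0.26).

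Apart from Ghsr and Ramp3, the receptor calls were each lost without 1 of the PVH libraries. Npy2r was -1.25 ± 0.24, and -1.10 without PVH 1 (adjusted p = 0.0719). Crhr2, the receptor of urocortins, was -1.16 ± 0.27, and -0.89 without PVH 1 (adjusted p = 0.183). Avpr1a, a vasopressin receptor, was -1.37 ± 0.33, and -0.99 without PVH 1 (adjusted p = 0.216). Esr2, the estrogen receptor beta of magnocellular neurons, stood at 0.578 and 1.85 TPM in PVH and at 0.412 to 1.15 TPM in the others. Its log2 fold change of 1.03 ± 0.33 (adjusted p = 0.0473) became -0.01 without PVH 2 and was called in 3 of 27 alternatives. The oxytocin receptor Oxtr stood at 3.15 and 3.07 TPM, below all 12 others (3.55 to 7.31 TPM), with a log2 fold change of -0.50 ± 0.14.

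Of the 14 genes of the stress and thyroid axes, Crh and Trh were higher, Crhbp was lower and 11 were not called, against 1.86% of all genes higher and 1.26% lower. Crhbp, which binds and neutralises Crh, stood at 3.36 and 4.13 TPM, below all 12 others (4.81 to 19.2 TPM), with a log2 fold change of -1.24 ± 0.22, and -1.13 without PVH 1 (adjusted p = 0.0526). The glucocorticoid receptor Nr3c1 stood at 43.4 and 44 TPM (0.26 ± 0.06), and the thyroid hormone receptors Thra and Thrb had log2 fold changes of -0.02 ± 0.06 and 0.00 ± 0.09. None of the 13 genes for prohormone processing and dense-core vesicles was called. Pcsk2, a prohormone convertase, was above all 12 others at 162 and 181 TPM (0.69 ± 0.06), and Pcsk1, the other convertase, was below all 12 at 16.3 and 25.4 TPM (-0.62 ± 0.12), both under the fold threshold.

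Of 11 transmitter genes, 1 was higher, 3 were lower and 7 were not called, against 1.86% of all genes higher and 1.26% lower. Slc17a7, the vesicular glutamate transporter 1, stood at 50.5 and 48.3 TPM in PVH, at a mean of 33 TPM in DMH and 23.3 TPM in LHA, and at 1.73 TPM or less on average in VMH and ARH (3.08 ± 0.45). Slc17a6, the transporter 2 that most hypothalamic glutamate neurons use, stood at 165 and 210 TPM (0.55 ± 0.13, under the fold threshold). Th and Ddc, of dopamine synthesis, and Hdc were lower. Th (-1.57 ± 0.39) was not called without PVH 1 (-1.46, adjusted p = 0.17) or without PVH 2 (-1.69, adjusted p = 0.0826), nor with the serial group as a term (-1.46, adjusted p = 0.0755). Nos1, the neuronal nitric oxide synthase, stood at 28.2 and 41.1 TPM against 20.2 to 31.7 TPM (0.54 ± 0.10).

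Among 184 tested genes that the study associates with obesity, 4 were higher in PVH (Tcf7l2, Tfap2b, Gpr151 and Fign) and 3 were lower (Pomc, Asb4 and Lmx1b), with a median log2 fold change of -0.01. These shares are close to the 1.86% and 1.26% of all genes. Tfap2b stood at 1.29 and 2.17 TPM against 0.0194 to 1.19 TPM (2.88 ± 0.36). Gpr151 stood at 1.76 and 4.71 TPM (1.87 ± 0.31), and was 1.05 without PVH 2 (adjusted p = 0.114). Fign (1.04 ± 0.18) was 0.77 without PVH 1 and 0.99 without LHA 3 or without VMH 2. Asb4, a gene of ARH neurons, stood at 6.63 and 9.08 TPM against 7.44 to 91.9 TPM (-1.96 ± 0.38), and was -1.74 without PVH 1 (adjusted p = 0.0771). Lmx1b, a LIM homeobox factor, stood at 0.358 and 0.098 TPM against 0.369 to 9.43 TPM (-3.93 ± 0.56). Of the 9 monogenic obesity genes, Pomc was lower and the other 8, Sim1, Mc4r and Lepr among them, were not called.

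Lists of other cell types and of activity genes were mostly not called against the mean of the 4 nuclei. In that comparison none of the endothelial, pericyte, haemoglobin, meningeal, ependymal, oligodendrocyte, oligodendrocyte precursor, astrocyte, microglia, neuron, pituitary and immediate early lists had a called member, while several differed from single nuclei. Summed myelin and oligodendrocyte transcripts were 5968 and 4506 TPM in PVH, 3871 to 6084 TPM in DMH, 11126 to 14499 TPM in LHA, 1573 to 3697 TPM in VMH and 1030 to 1718 TPM in ARH. Of the 9 myelin genes, 9 were higher than in ARH, 4 higher than in VMH, 8 lower than in LHA and 0 called against DMH. In a contrast without LHA, 8 of the 9 were called higher. The ependymal list summed to 49.3 TPM in PVH 1 and 104 TPM in PVH 2, to 27.3 to 30.7 TPM in LHA, 101 to 270 TPM in DMH, 141 to 162 TPM in ARH and 165 to 336 TPM in VMH. Of its 6 genes, 6 were lower than in VMH, 2 lower than in ARH and 4 higher than in LHA. All 6 meningeal genes were lower than in ARH and 1 was lower than in LHA. The part of these cell types in the other differences was not tested. The tanycyte genes Col23a1 and Scn7a were lower in PVH, with ARH holding most of both. Col23a1 (-2.05 ± 0.38) was -1.79 without PVH 1 (adjusted p = 0.0602). Of the choroid plexus list, Kl and Clic6 were lower and Otx2 was higher (11.5 and 8.29 TPM, DMH mean 7.62 TPM), while its defining gene Ttr was at 0.324 TPM or less in PVH. Kl was -0.96 without PVH 1 (adjusted p = 0.116). Of the suprachiasmatic list, Rgs16 was higher (106 and 97.9 TPM, against 12.9 to 82.1 TPM) and Six6 lower (-2.98 without PVH 1, adjusted p = 0.0503), and Vip was at 0.866 TPM or less in PVH.

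The 2 PVH libraries differed in the genes that define the nucleus. Of 7827 genes at 20 TPM or more in at least 1 of them and above 0 in both, 95 (1.21%) differed by over 2-fold. The median ratio of the larger to the smaller was 1.11. Genes at 0 in either PVH library were left out of this count and of the ranking by ratio. Avp was 4.83 times and Oxt 4.58 times higher in PVH 2, Otp 2.92 times, Pdyn 2.78 times and Ucn3 2.39 times. Of the 13 PVH neuropeptides, 11 were at a higher level in PVH 2, as were all 6 PVH transcription factors, whatever their level. Of the 7827 genes, 71% were. Of the 11 thalamus markers, 4 were higher in PVH 2. Pmch was 5.87 times higher in PVH 1. The 10 genes with the largest ratio by rule were all pseudogenes or predicted gene models, whose reads can be divided among near-identical copies, and their values are not given. Among protein-coding genes with a named symbol, looked at after those, Mid1 had the largest ratio, at 53.9 TPM in PVH 1 and 7.23 TPM in PVH 2.

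Across the means of the 22 brain regions, the gene most like Oxt was Avp (Pearson's r = 0.982 on log2(TPM + 0.5)), followed by Sytl4 (0.900), Esyt3 (0.852), Mesd (0.850) and Rrad (0.848). The genes most like Sim1 were Tcf7l2 (0.806), Otp (0.799), Magel2 (0.794), Ankrd50 (0.788) and Parp8 (0.786). Those most like Ucn3 were Oxt (0.775), Defb1 (0.746), Avp (0.724), Trh (0.709) and Zap70 (0.696). The points are 22 region means that share libraries across genes, and the values are a description.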

How the data were processed

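RNA from punches of frozen sections was made into strand-specific mRNA libraries and sequenced as single reads. With kallisto on the cDNA of GRCm38, the authors estimated counts and TPM per transcript and summed TPM per gene. The deposited estimated counts were not normalized between libraries, and the deposited TPM values are scaled within each library. Whether strand was used in the counting is not given in the sources used here. Many of the genes named overlap another gene in the annotation (Gbx2, Shox2, Grid2ip, Adgrg6, Zic4, Pmch, Hmx3, Nkx2-1, Fzd5 and Irx3 among those named by size) and may share reads with it.

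Here, transcripts were matched to genes with GENCODE M21 (98.8% of 109282 transcripts), and each gene's estimated counts were added up and rounded to whole numbers. Total counts were 14201960 to 19689276 per library, so depth limits mainly genes with few counts. After TMM scaling and filterByExpr, which kept 16526 genes, edgeR's quasi-likelihood model (version 4.0.16, R 4.3.3) was fitted to the 14 libraries with 1 coefficient per nucleus. P-values were adjusted by Benjamini-Hochberg over all 16526 genes. PVH was contrasted with the unweighted mean of the other 4 and with each of them. The p-values measure the spread between pooled libraries. Each SE was the absolute log2 fold change divided by the square root of the F statistic of its test. It is approximate, and least reliable for genes with few counts. Alternatives used DESeq2 1.42.0, limma 3.58.1 on log2(TPM + 0.5) or log2(TPM + 0.1), no filter, all 70 libraries in 1 fit, the other nuclei as 1 group, a replicate block, the serial group of the labels as a term (added after the data were seen), no fold threshold, and each nucleus or library left out. The code was checked on simulated counts. Other steps used Python 3.11.15 with pandas 2.3.3, NumPy 2.4.6 and SciPy 1.17.1.

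Named genes are the 12 largest changes each way among called genes with both PVH libraries outside the range of the 12 others, a mean of 5 TPM or more in PVH (for lower genes, over the other nuclei), and gene and transcript TPM within 5%, plus called members of the marker lists and of the study's obesity genes, all members of the peptide, transcription factor, receptor and monogenic lists, the 10 largest ratios between the PVH libraries, and the 5 genes most like Oxt, Sim1 and Ucn3 over regions. Values of individual list members are shown for some only, and some genes that the rule selects are not reported here. The members and lists were chosen with earlier results of these data known, and some lists hold genes seen in them. A floor of 3 counts over the group and exact Poisson intervals cover counting error only. Promoter sequences are from RefSeq.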

Additional observations from a re-analysis of the deposited data

Results flagged for a closer look

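Avp stood at 18.8 TPM in DMH 1, while the other 3 DMH libraries were at 0 to 1.81 TPM. Its gap to the nearest of them was 0.903 of the range of the 4 libraries, above Dixon's 95% critical value for 4 libraries. Of 51 genes looked at in DMH, this was the 1 flagged, where chance flags about 1 in 20. DMH is the nucleus with 4 libraries, and the groups of 2 or 3 were not tested in this way.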

How the results depend on the processing

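Of 73 called genes that were followed through 27 alternatives, 8 stayed called in every one and 48 in every one except the fit that treated the other nuclei as 1 group, where 8 of the 73 were called. The log2 fold change of Esr2 turned sign between the fits that left out 1 library, from -0.0113 without PVH 2 to 1.62 without PVH 1. With no fold threshold, 1663 genes were higher and 1125 lower in PVH, and 6047, 3189, 902 and 3496 differed from ARH, VMH, DMH and LHA. With the other nuclei as 1 group, 35 were higher and 11 lower. With all 70 libraries in 1 fit, 123 were lower, and 538, 96 and 499 differed from VMH, DMH and LHA. limma with no filter called 138 lower, 109 against DMH and 495 against LHA, and limma with either pseudocount called 132 against DMH. The contrast gave 135 lower genes without ARH and 430 without LHA. Leaving out 1 library gave 221 to 335 higher genes and 99 to 241 lower, and 1292 to 1710 calls against ARH, 498 to 1029 against VMH, 82 to 350 against DMH and 454 to 794 against LHA. Where a nucleus of 2 libraries was reduced to 1, the lone library was assumed to vary like the other groups. Over 23 pairs of libraries with the same replicate number, the correlation of deviations from the nucleus mean had a median of -0.009 and exceeded 0.1 in 3. Deviations cancel within a nucleus, and those of 2 libraries mirror each other. Such correlations therefore cannot decide whether libraries were paired. With a replicate block, 269 genes were higher, 173 lower and 97 differed from DMH. With the serial group as a term, added after the data were seen, the 6 counts stayed within 1.5 times the main ones, and of the 73 genes Trh, Th and Esr2 were no longer called. Over 18 pairs of libraries of the same serial group, the correlation had a median of 0.0464 and exceeded 0.1 in 5. Beyond the settings' own construction, such as fewer libraries, the cause of these shifts was not tested. Depth limits the genes with few counts in PVH, among them Hcrt, Bsx, Npvf, Nr5a1 and Sox14.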
